A study of Mus musculus with 30 samples.

Results

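The suppressors of cytokine signalling were followed in mouse embryonic fibroblasts (MEFs) under stress. They are the 8 genes Socs1, Socs2, Socs3, Socs4, Socs5, Socs6, Socs7 and Cish, chosen by name from the gene column of the array files, whatever their values. They were read by 12 of the 33453 probes and are 8 of the 21689 genes on the array. Socs2 and Socs6 had 2 probes each, Socs4 had 3 and the other genes had 1.

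The study asked which transcripts answer to stress through the stress-activated kinase p38, and how far inhibition or loss of the kinase changes the answer. Immortalised wild type (WT) MEFs received 25 ng/ml anisomycin, an inhibitor of protein synthesis, for 45 min, 100 ng/ml of the inflammatory cytokine TNFα for 45 min, or 100 mM NaCl, an osmotic stress, for 45 min, 2 h or 8 h. The same 5 treatments were given to WT MEFs exposed beforehand to SB203580, an inhibitor of the p38 kinases, and WT MEFs with SB203580 alone formed a further group. This 1 group is the base for all 5 stresses with SB203580 below, so it cannot match 45 min, 2 h and 8 h in time. The part of time in the inhibitor in those differences was not tested. Immortalised MEFs lacking p38α (p38α-/-) were left untreated or received anisomycin for 45 min, TNFα for 45 min or NaCl for 2 h. SB203580 was added at 10 µM for 30 min before the stress, by the protocol text, with which the study's methods concur. The sample titles differ from both in giving a higher concentration unit and a longer time. Each of the 15 groups had 2 arrays from separate experiments, 30 arrays in all. Each genotype was represented by cells under 1 name, so the knockout and other differences between the lines cannot be told apart. SB203580 is a chemical inhibitor, and its action on other targets was not measured.

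Every array set labelled RNA of 1 sample (Cy5) against the same pool of untreated WT MEFs (Cy3), and no dyes were swapped. Values are log2 ratios of sample over pool, so that 0 is the level of the pool and 1 is a doubling. The pool was the only untreated WT material. Its own spread is therefore left out of every comparison with it, and a dye effect particular to a probe would enter every such value in the same way. A difference between 2 groups does not hold the pool. The exception is a difference of responses that involves WT without SB203580: this arm has no unstressed arrays, so its response is its ratio over the pool, and the difference then holds the pool and any such dye effect. A lower level in these bulk samples cannot be divided between fewer expressing cells and less RNA per cell.

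Suppressors of cytokine signalling are feedback inhibitors of the JAK-STAT pathway. A cytokine receptor activates its JAK kinases, these activate STAT factors, and the STATs induce SOCS genes whose products then act on the receptor complex. All members carry an SH2 domain, which binds phosphorylated tyrosine, and a SOCS box, which recruits the elongins and Cullin 5 to form a ubiquitin ligase. Socs1 and Socs3 also hold a kinase inhibitory region that blocks JAKs directly. Socs3 is best known for restraining receptors of the gp130 type used by IL-6 and LIF, Cish and Socs2 for restraining STAT5-activating receptors such as that of growth hormone, Socs4 and Socs5 for acting on the EGF receptor, and Socs6 and Socs7 for acting on insulin receptor signalling.

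The 250 bases before the start site are shown for Socs3, Cish and Socs4. The region just upstream of a start site is where STAT and other inducible factors commonly act. The sequences are those of RefSeq on mouse build GRCm38.p6, printed 5′ to 3′ on the strand of the gene. Socs3 lies on the minus strand of chromosome 11, and its window is chr11:117969367-117969616, within the annotated gene at 117966079 to 117970336, since the start site used by RefSeq for this window is not the outermost one. Cish lies on the plus strand at chr9:107296409-107296658 and Socs4 on the plus strand at chr14:47276670-47276919. Capitals mark a match to TTCNNNGAA, the palindromic letters known for STAT binding.
Socs3: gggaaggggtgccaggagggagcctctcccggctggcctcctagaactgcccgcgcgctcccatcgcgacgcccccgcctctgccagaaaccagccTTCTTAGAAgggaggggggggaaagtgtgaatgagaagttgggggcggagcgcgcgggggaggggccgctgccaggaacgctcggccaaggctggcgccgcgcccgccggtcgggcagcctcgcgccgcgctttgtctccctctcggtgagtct
Cish: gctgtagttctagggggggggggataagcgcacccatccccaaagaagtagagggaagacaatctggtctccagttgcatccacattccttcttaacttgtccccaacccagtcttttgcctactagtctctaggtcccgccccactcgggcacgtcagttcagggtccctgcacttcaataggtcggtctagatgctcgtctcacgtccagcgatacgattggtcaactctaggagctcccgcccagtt
Socs4: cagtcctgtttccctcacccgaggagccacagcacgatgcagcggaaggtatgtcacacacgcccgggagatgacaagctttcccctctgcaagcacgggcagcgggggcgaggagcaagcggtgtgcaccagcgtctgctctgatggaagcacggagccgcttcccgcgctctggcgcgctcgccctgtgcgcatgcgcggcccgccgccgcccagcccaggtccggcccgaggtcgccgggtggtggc
The Socs3 window held 1 match, TTCTTAGAA, whose first base lies 154 bases before the start site. The windows of Cish, Socs4 and Socs1 held none. Of all 32851 RefSeq promoters of the same length, 7.02% held these letters on either strand. The letters TGANTCA, known for AP-1, and those of GGG, any 2 bases and TTTCC, known for NF-κB, were found in none of the 4 windows on either strand and in 6.75% and 1.41% of all promoters. A match is a description of the letters only. Promoter windows for Socs2, Socs5, Socs6 and Socs7 were not analysed here.

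All 12 probes were well above background in both channels on all 30 arrays, and none was saturated. Their signals differed widely, with Cy3 medians over the arrays from 257 (Socs2 probe A_52_P84037) to 13783 (Socs7), and 507 for Cish. Missing values came from the scanner software, which marks a spot whose pixels are uneven or far from its kind as an outlier. Such spots were left out of the tests. They made up between 6.78% and 44.8% of the spots of an array, with a median of 16.0%. Cish and 1 probe of Socs2 were measured on all 30 arrays, as were 2 probes of Socs4, whereas Socs1 was measured on 10 arrays, Socs7 on 19 and Socs3 on 25. Median processed signals ran from 846 to 1954 in Cy3 and from 832 to 1870 in Cy5. In WT they were 955 to 1201 in Cy3 on the 11 replicate 1 arrays and 1208 to 1954 on the 11 replicate 2 arrays, which were scanned in another batch and did not overlap with the first. The part of signal strength in differences between replicates was not tested. Mapk14, which encodes p38α, was between -0.94 and -2.24 on every p38α-/- array that measured it and at least 0.05 on every such WT array. All 9 fibroblast markers looked for were well above background in Cy5 on every array, but so were 5 of 5 leukocyte markers, so this flag does not tell cell types apart.

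**Figure D1:**
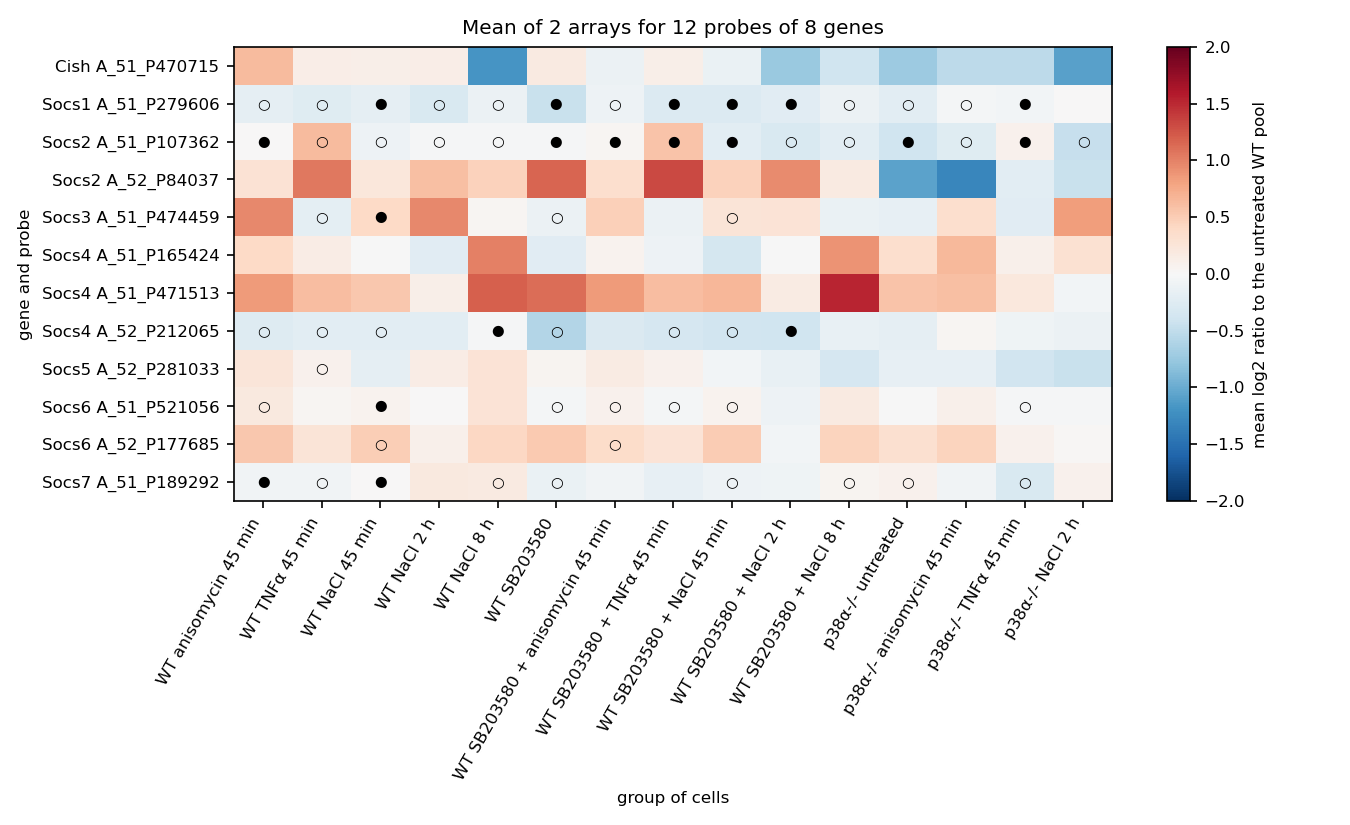
Mean log2 ratio over the pool for each of the 12 probes (rows) in each of the 15 groups (columns), over 2 arrays and with outlier-marked spots kept, coloured from -2 (blue) to 2 (red). An open circle marks a cell with 1 of its 2 spots marked as an outlier and a filled circle a cell with both. Socs3 stands above the pool in WT after anisomycin and after NaCl at 2 h, and Socs4 probe A_51_P471513 in most groups, while the means of Cish and of Socs2 probe A_52_P84037 lie below the pool in all 4 p38α-/- groups.

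A gene was tested in a group where both arrays measured it, which gave 90 tests and left 30 combinations of gene and group untested. Of the 90, 20 passed an adjusted p of 0.05 from limma, 16 above the pool and 4 below it, which is 22.2% of them. Over all genes tested in the 15 groups, 36591 of 248502 tests passed, or 14.7%. Of these, 18782 lay above the pool and 17809 below it, and the share in single groups was 7.61% to 26.6%. Whether the share for the suppressors differs from that of all genes was not tested. Socs3 passed in 4 of the 11 groups that could be tested, Socs4 in 4 of 15, Socs6 in 5 of 13, Socs2 in 5 of 15 and Cish in 2 of 15. Socs5 in 14 groups, Socs7 in 6 and Socs1 in 1 passed in none.

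Socs3, the inhibitor of gp130-type receptors, rose after anisomycin at 45 min and after NaCl at 2 h, and was back at the level of the pool after 8 h of NaCl. After anisomycin the 2 WT arrays stood at 1.10 and 0.83, a mean log2 ratio of 0.96 ± 0.19 (SD, n = 2), or 1.95-fold over the pool (adjusted p = 0.000131 from limma). After 2 h of NaCl they stood at 1.06 and 0.86, with a mean of 0.96 ± 0.14 (SD, n = 2, adjusted p = 8.46e-05 from limma). All 4 of these arrays lay far above the pool. After 8 h of NaCl both arrays stood at 0.03, and the adjusted p was 0.885 from limma. The fall from 2 h to 8 h was -0.93 on the log2 scale, with a standard error (SE) of 0.15 (adjusted p = 0.00168 from limma), and was -1.03 among the replicate 1 arrays and -0.83 among the replicate 2 arrays, which were scanned apart. The 2 time points did not overlap. TNFα gave -0.21 on the single array that measured Socs3. At 45 min of NaCl both spots were marked as outliers, and kept they read 0.48 and 0.32.

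With SB203580, Socs3 was lower in both pairs of arrays after anisomycin and after NaCl at 2 h and 8 h, but no difference passed over all genes. SB203580 alone gave 0.06 on the single array that measured it. After SB203580 and anisomycin the arrays stood at 0.60 and 0.35, with a mean of 0.47 ± 0.18 (SD, n = 2, adjusted p = 0.0125 from limma), still above the pool. After SB203580 and 2 h of NaCl they stood at 0.26 and 0.30, with a mean of 0.28 ± 0.03 (SD, n = 2), and the adjusted p was 0.0910 from limma, or 0.0438 with the replicate number as a block. Both values with SB203580 lay below both values without it under each stress. The difference was -0.49 (SE 0.15) for anisomycin, at an unadjusted p of 0.00577 and an adjusted p of 1 from limma. For 2 h of NaCl it was -0.68 (SE 0.15), at an unadjusted p of 0.000472 and an adjusted p of 0.670 from limma. Array by array, the differences were -0.50 and -0.49 for anisomycin and -0.81 and -0.56 for NaCl. At 8 h of NaCl with SB203580 Socs3 read -0.18 and -0.09, close to the pool, and with TNFα it read -0.15 and -0.07. With 45 min of NaCl 1 array measured it, at 0.26.

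In p38α-/- MEFs, Socs3 answered to 2 h of NaCl and was lower than in WT after anisomycin, where the test depended on the fit. Untreated p38α-/- cells stood at -0.17 and -0.16. After 2 h of NaCl they stood at 0.67 and 1.01, with a mean of 0.84 ± 0.24 (SD, n = 2, adjusted p = 0.000151 from limma), which overlapped the WT values. Against untreated p38α-/- cells the rise was 1.01 (SE 0.15, adjusted p = 0.00461 from limma), but the adjusted p was 0.192 when only the p38α-/- arrays entered the fit. The difference from WT after NaCl was -0.12 (SE 0.15, adjusted p = 0.809 from limma). After anisomycin the p38α-/- arrays stood at 0.17 and 0.50, with a mean of 0.34 ± 0.23 (SD, n = 2), and both were below both WT arrays. Against the pool the adjusted p was 0.0545 from limma, or 0.0238 with the block.

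The difference of Socs3 between the genotypes after anisomycin was -0.63 (SE 0.15, adjusted p = 0.0656 from limma), and the adjusted p was 0.0175 with the block. It was also under the threshold with normexp background correction (0.0261), with the series matrix (0.0155) and with outlier spots kept (0.0335). Within the only scanning batch that held both genotypes it was -0.66. Set against untreated p38α-/- cells, the rise after anisomycin was 0.50, at an adjusted p of 1 from limma and an unadjusted p of 0.00509. With the response of p38α-/- cells taken from their untreated group and that of WT from the pool, the responses to anisomycin differed by -0.46 (SE 0.19, adjusted p = 0.252 from limma), and those to NaCl by 0.04 (adjusted p = 0.942 from limma). The difference for anisomycin passed with the series matrix, at -0.655 (adjusted p = 0.0394 from limma). TNFα in p38α-/- cells gave -0.32 and -0.15.

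**Figure D2:**
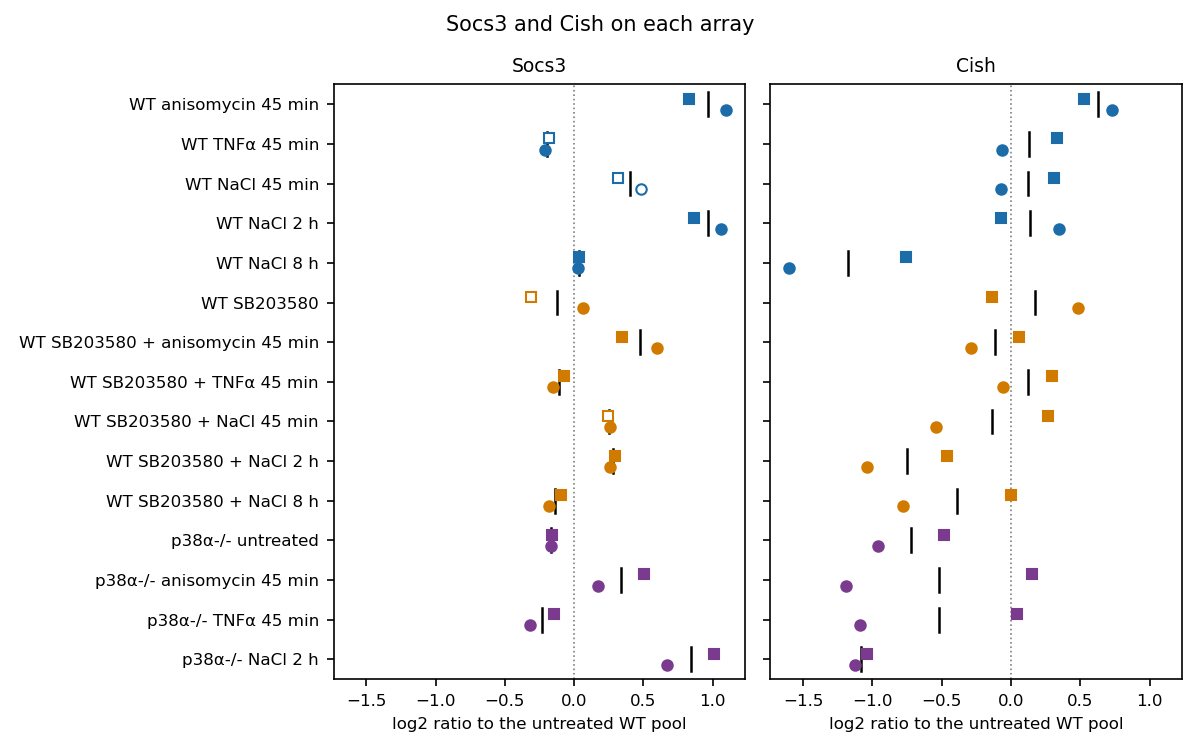
Log2 ratio over the pool of Socs3 and Cish on each array of the 15 groups: circles are replicate 1 arrays, squares are replicate 2 arrays, open symbols are outlier-marked spots and bars are means of both; blue is WT with stress, orange is SB203580 and purple is p38α-/-. Socs3 is near 1 after anisomycin and after 2 h of NaCl in WT and near 0 after 8 h, and Cish lies below 0 on both arrays after 8 h of NaCl.

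Socs1, the closest relative of Socs3 and the other member with a kinase inhibitory region, showed no change that could be tested. Its spots were marked as outliers on 20 of 30 arrays. The 10 arrays that measured it ranged from -0.23 to 0.18 with a median of -0.13. Only p38α-/- cells after 2 h of NaCl had 2 measured arrays, at -0.16 and 0.18, which lie on either side of the pool (mean 0.01, adjusted p = 0.986 from limma).

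Cish, the STAT5-induced member, fell after 8 h of NaCl in WT MEFs and was below the pool in p38α-/- MEFs after 2 h of NaCl. After 8 h of NaCl the WT arrays stood at -1.60 and -0.76, with a mean of -1.18 ± 0.60 (SD, n = 2), or 0.442-fold of the pool (adjusted p = 0.0102 from limma). Both arrays were below the pool, but the distance rests largely on replicate 1, and without it the value was -0.76 with an adjusted p of 0.310 from limma. At 45 min of NaCl the arrays read -0.07 and 0.31, and at 2 h 0.35 and -0.07, all close to the pool. The difference between 8 h and 2 h was -1.31 (SE 0.44, adjusted p = 0.0795 from limma), and the adjusted p was 0.0163 with the block and 0.0383 with only WT arrays in the fit. Within the batches the difference was -1.95 and -0.68.

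Anisomycin gave Cish values of 0.73 and 0.52 in WT, the highest of any group, with a mean of 0.63 ± 0.15 (SD, n = 2) that did not pass (adjusted p = 0.196 from limma). TNFα gave -0.07 and 0.33. With SB203580 the values were -0.29 and 0.06 after anisomycin, -0.06 and 0.29 after TNFα, and 0.48 and -0.14 without stress. These pairs straddled the pool. After SB203580 with NaCl, Cish read -0.54 and 0.27 at 45 min and -1.04 and -0.46 at 2 h. At 8 h it read -0.78 on replicate 1 and the level of the pool on replicate 2. Of the 3 NaCl groups with SB203580, only that at 2 h had both arrays clearly below the pool (mean -0.75 ± 0.41, SD, n = 2, adjusted p = 0.106 from limma, 0.0290 with the block). The differences made by SB203580 were -0.74 for anisomycin, -0.89 for NaCl at 2 h and 0.79 for NaCl at 8 h, each with SE 0.44 and an adjusted p of 1 from limma, and so ran in both directions.

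In the p38α-/- line, Cish stood below the pool on replicate 1 in all 4 groups. It read -0.96 and -0.48 untreated, -1.19 and 0.15 after anisomycin, -1.09 and 0.05 after TNFα, and -1.12 and -1.04 after 2 h of NaCl. The replicates were far apart after anisomycin and TNFα and close after NaCl. They were scanned in different batches, and the part of the batch in this spread was not tested. After NaCl the mean was -1.08 ± 0.06 (SD, n = 2, adjusted p = 0.0219 from limma). This call was lost with normexp background correction, at -0.51 (adjusted p = 0.0621 from limma), and with only the p38α-/- arrays in the fit (0.123). In untreated cells it was -0.72 ± 0.34 (SD, n = 2, adjusted p = 0.127 from limma, 0.0376 with the block). Against WT under the same stress the differences were -1.15 for anisomycin (adjusted p = 0.268 from limma), -0.65 for TNFα (0.805) and -1.22 for NaCl at 2 h (0.269), and within the shared batch they were -1.72, -1.42 and -1.05. No p38α-/- group differed from untreated p38α-/- cells past the threshold.

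Socs2, which restrains growth hormone receptor signalling, was above the pool after TNFα and with SB203580 in WT MEFs and below it in untreated and anisomycin-treated p38α-/- MEFs. As a gene it read 1.24 and 0.66 after TNFα (mean 0.95 ± 0.41, SD, n = 2, adjusted p = 0.0252 from limma). It read 1.50 and 0.82 with SB203580 alone (mean 1.16 ± 0.48, SD, n = 2, adjusted p = 0.00393 from limma) and 1.69 and 0.96 with SB203580 and TNFα (mean 1.32 ± 0.52, SD, n = 2, adjusted p = 0.00499 from limma). In each of these groups both arrays lay above the pool, and replicate 1 lay above replicate 2. Untreated p38α-/- cells read -1.16 and -0.98 (mean -1.07 ± 0.13, SD, n = 2, adjusted p = 0.0100 from limma). Anisomycin-treated p38α-/- cells read -1.39 and -0.70 (mean -1.05 ± 0.49, SD, n = 2, adjusted p = 0.0135 from limma), the first from probe A_52_P84037 alone and the second from both Socs2 probes. All 4 arrays were below the pool. With normexp background correction the anisomycin value was -0.41 and did not pass (adjusted p = 0.0780 from limma).

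The 2 probes of Socs2 did not give the same picture, and the gene value mixed them, since probe A_51_P107362 was marked as an outlier on 22 of 30 arrays and the gene value then came from probe A_52_P84037 alone. Probe A_52_P84037 is also 1 of the 2 probes that could not be matched to a RefSeq symbol, so its target was not checked beyond the array's gene name. The fit of single probes was added after the values were seen. Probe A_52_P84037 was measured on every array and ranged from -1.39 to 1.69. By this probe 6 groups passed: TNFα with 1.45 and 0.66 (mean 1.05, adjusted p = 0.00586 from limma), SB203580 alone (1.16, 0.00146), SB203580 with TNFα (1.32, 0.00170), SB203580 with NaCl at 2 h (0.70 and 1.18 on the arrays, mean 0.94, 0.00846), untreated p38α-/- cells (-1.07, 0.00414) and p38α-/- cells with anisomycin (-1.39 and -1.21 on the arrays, mean -1.30, 0.00116).

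With marked spots kept, probe A_51_P107362 of Socs2 gave values of the same sign but of less size in most of these groups. It read 1.04 and 0.22 after TNFα and 0.60 and 0.55 after SB203580 with TNFα. In p38α-/- cells it read -0.58 and -0.22 untreated and -0.31 and -0.19 after anisomycin. It did not show the rise with SB203580 alone, where it read 0.16 and -0.20, nor that with SB203580 and NaCl at 2 h, where it read -0.25 and -0.35. Which of the probes follows the Socs2 transcript was not tested.

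Between genotypes, the mean of Socs2 was lower in p38α-/- MEFs under all 3 stresses, and the difference passed for anisomycin and TNFα in some fits only. As a gene the difference was -1.34 for anisomycin (SE 0.37, adjusted p = 0.0956 from limma, 0.0335 with the block), -1.16 for TNFα (adjusted p = 0.280 from limma) and -1.03 for NaCl at 2 h (adjusted p = 0.263 from limma). With the series matrix the differences for anisomycin and TNFα were -0.93 (adjusted p = 0.0213 from limma) and -0.94 (0.0419), and with outlier spots kept that for anisomycin was -0.92 (0.0431). By probe A_52_P84037 alone it was -1.60 for anisomycin (SE 0.33, adjusted p = 0.0190 from limma), -1.27 for TNFα (0.129) and -1.06 for NaCl (0.161). On that probe WT cells read 0.82 and -0.23 after anisomycin, against -1.39 and -1.21 in p38α-/- cells, without overlap. Under TNFα (-0.38 and -0.05 in p38α-/- cells) and NaCl (0.86 and 0.36 in WT, -0.58 and -0.32 in p38α-/- cells) the genotypes did not overlap either. Untreated p38α-/- cells were already low, and no stress moved them past the threshold: TNFα gave a rise of 0.85 over untreated p38α-/- cells, at an adjusted p of 1 from limma and an unadjusted p of 0.0322.

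In WT MEFs the other Socs2 values were 0.02 and 0.35 at 45 min of NaCl, 0.86 and 0.21 at 2 h and 0.25 and 0.47 at 8 h. None of these passed against the pool. With SB203580 they were 0.50 and 0.15 after anisomycin, 0.50 and 0.41 at 45 min of NaCl, 0.23 and 1.18 at 2 h and 0.02 and 0.07 at 8 h. The group at 2 h had replicates nearly 1 unit apart (mean 0.70 ± 0.67, SD, n = 2, adjusted p = 0.0701 from limma, 0.0404 with the block). Part of this distance came from the probes: replicate 1 averaged both, and replicate 2 held probe A_52_P84037 alone, which read 0.70 and 1.18. Relative to SB203580 alone, SB203580 with 8 h of NaCl was lower by -1.11 (SE 0.37, adjusted p = 0.0751 from limma, 0.0421 with the block).

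**Figure D3:**
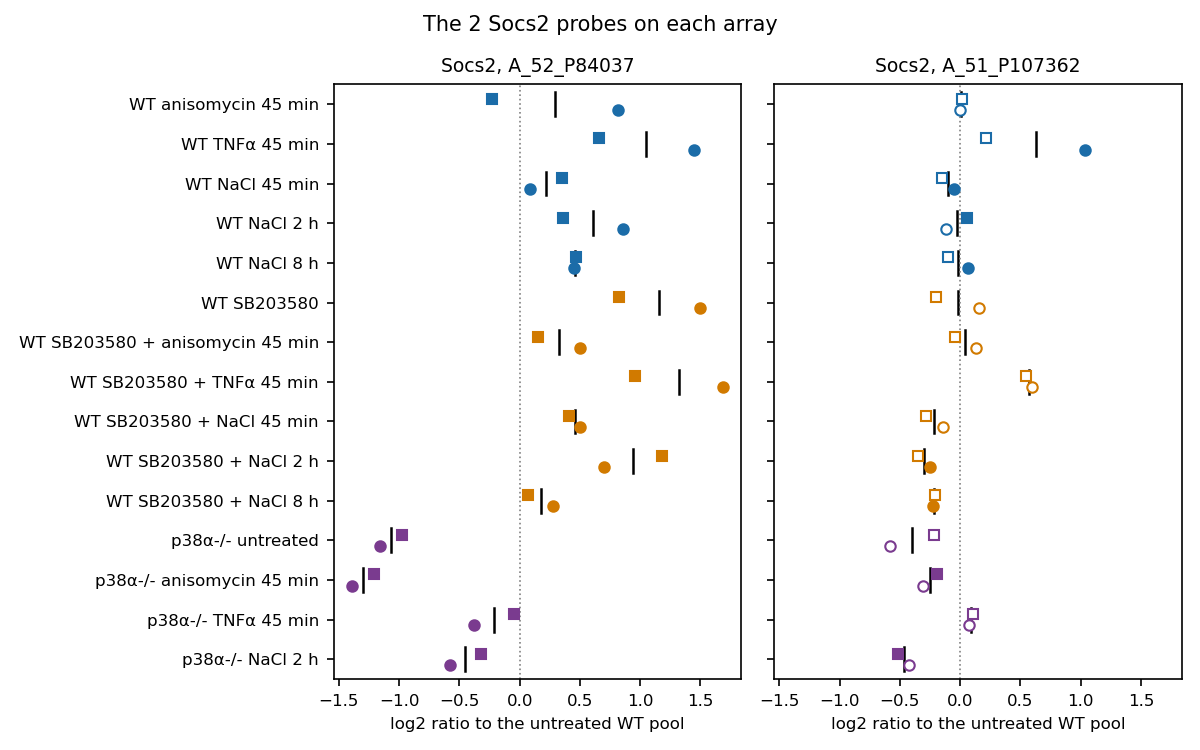
Log2 ratio over the pool of the 2 Socs2 probes on each array of the 15 groups; symbols and colours are as in the plot of Socs3 and Cish. Probe A_52_P84037 runs from -1.39 to 1.69 and is below 0 on all 8 p38α-/- arrays, whereas most spots of probe A_51_P107362 are open, that is, marked as outliers, and its values lie closer to 0.

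Socs4, known for acting on the EGF receptor, rose late in the response to NaCl. After 8 h of NaCl the WT arrays stood at 0.98 and 1.22, with a mean of 1.10 ± 0.17 (SD, n = 2), or 2.14-fold over the pool (adjusted p = 2.59e-06 from limma). With SB203580 they stood at 0.65 and 0.87 (mean 0.76 ± 0.16, SD, n = 2, adjusted p = 0.000160 from limma). At 2 h the arrays read -0.02 and -0.20 without SB203580 and 0.17 and -0.02 with it. The times did not overlap in either arm. The difference between 8 h and 2 h was 1.21 in WT (SE 0.16, adjusted p = 0.000159 from limma) and 0.69 with SB203580 (SE 0.16, adjusted p = 0.0135 from limma). These 2 gene values were built from different probes, as given below, so their sizes cannot be compared between the arms. The value with SB203580 at 8 h was lower than that without by -0.34, at an unadjusted p of 0.0502 and an adjusted p of 0.996 from limma. Against SB203580 alone it was higher by 0.52 (SE 0.16), which did not pass (adjusted p = 0.0585 from limma). This difference passed with the series matrix (0.635, adjusted p = 0.00107 from limma) and with outlier spots kept (0.654, 0.00305).

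The rise of Socs4 was carried by 2 of its 3 probes. Probe A_51_P165424 read 0.90 and 1.13 after 8 h of NaCl (mean 1.01, SE 0.18, adjusted p = 0.000434 from limma) and 0.63 and 1.17 with SB203580 (mean 0.90, adjusted p = 0.00137 from limma). Probe A_51_P471513 read 1.06 and 1.32 (mean 1.19, SE 0.13, adjusted p = 4.90e-06 from limma) and 1.50 and 1.53 with SB203580 (mean 1.52, adjusted p = 1.04e-06 from limma). On these 2 probes all arrays at 8 h lay above the pool, and SB203580 did not lower the mean of the second. The third probe, A_52_P212065, did not rise. Both of its WT spots at 8 h were marked as outliers and read 0.02 and -0.08 when kept, and with SB203580 it read -0.19 and -0.09 (mean -0.14, adjusted p = 0.399 from limma). Over its 20 measured arrays it ranged from -0.70 to 0.09. Because this probe entered the gene value with SB203580 at 8 h and not in WT at 8 h, the gene values of the 2 arms at 8 h were not built from the same probes. At 2 h it entered the gene value in WT and not with SB203580. The differences between 8 h and 2 h therefore also mixed probes, in opposite ways in the 2 arms.

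Probe A_51_P471513 also differed from the others in being above the pool under most treatments. It is the other probe without a match to a RefSeq symbol, and its target was not checked beyond the array's gene name. Anisomycin gave 0.84 and 0.86 (mean 0.85, adjusted p = 0.000542 from limma), TNFα a mean of 0.62 (0.00535) and NaCl at 45 min a mean of 0.53 (0.0152). SB203580 alone gave 1.18 and 1.04 (mean 1.11, adjusted p = 4.88e-05 from limma). The NaCl groups at 2 h stood nearest to the pool, at means of 0.11 in WT, 0.16 with SB203580 and -0.05 in p38α-/- cells, followed by p38α-/- cells with TNFα, at 0.24 and 0.17. From 2 h to 8 h of NaCl this probe rose by 1.08 in WT (adjusted p = 0.00134 from limma) and by 1.36 with SB203580 (0.000216), and probe A_51_P165424 rose by 1.24 (0.00437) and 0.92 (0.0300).

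For the earlier stresses the gene value of Socs4 was 0.75 and 0.27 after anisomycin in WT (mean 0.51 ± 0.34, SD, n = 2, adjusted p = 0.00792 from limma) and 0.35 and 0.50 in p38α-/- cells (mean 0.43 ± 0.11, SD, n = 2, adjusted p = 0.0207 from limma). All 4 arrays were above the pool. The value in WT rests on probe A_51_P471513, which read 0.84 and 0.86, while probe A_51_P165424 read 0.67 and 0.12. With replicate 2 alone the gene value in WT was 0.27. That array also held probe A_52_P212065, at -0.17, which was marked as an outlier on replicate 1, so the replicates were built from different probes. The value in p38α-/- cells did not pass with only the p38α-/- arrays in the fit (adjusted p = 0.108 from limma) or by the brightest probe of Socs4, at 0.033 (0.886). TNFα, NaCl at 45 min and 2 h, the other SB203580 groups and the other p38α-/- groups gave gene means of -0.11 to 0.30 that did not pass. The genotypes differed by -0.08 for anisomycin, -0.22 for TNFα and 0.16 for NaCl at 2 h, none past the threshold.

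**Figure D4:**
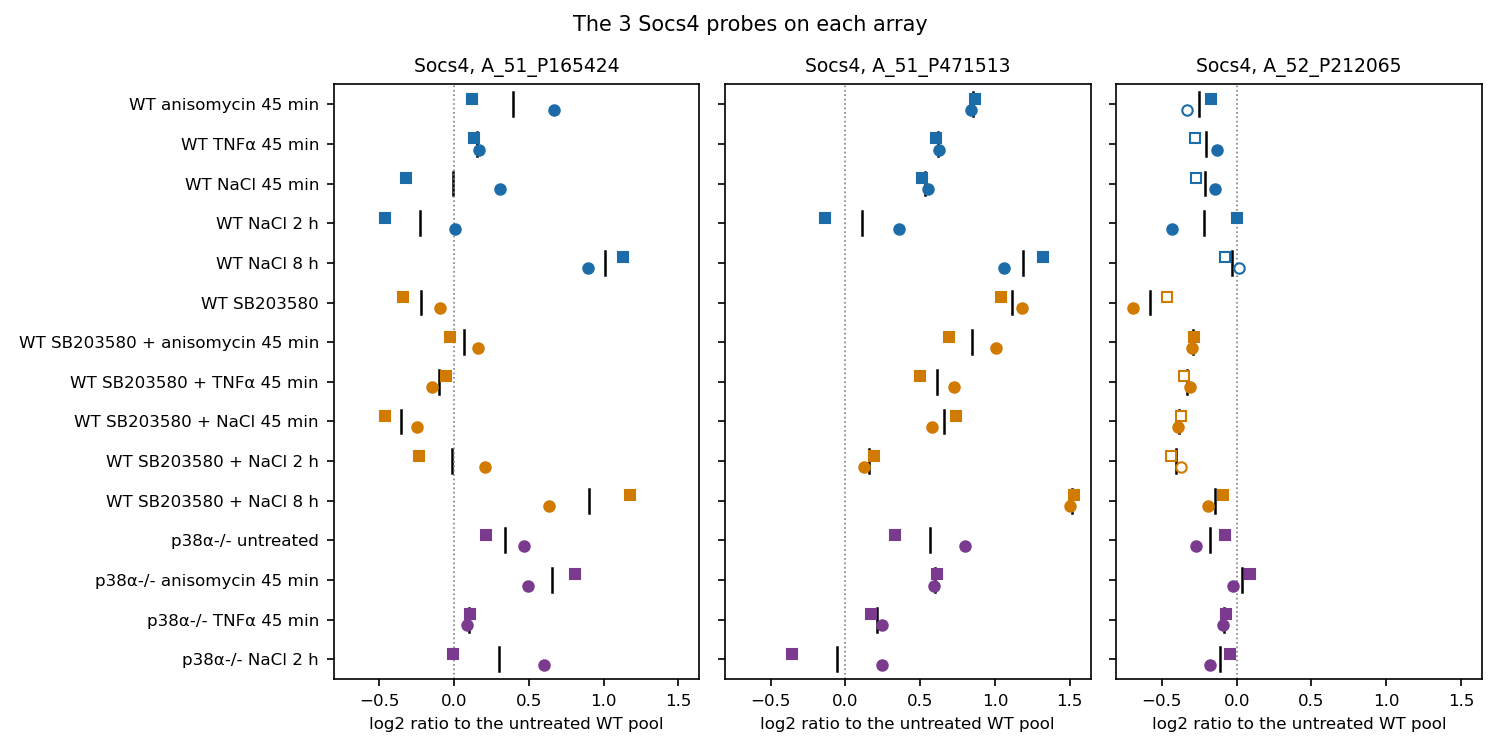
Log2 ratio over the pool of the 3 Socs4 probes on each array of the 15 groups; symbols and colours are as in the plot of Socs3 and Cish. The group means of probes A_51_P165424 and A_51_P471513 are highest after 8 h of NaCl, with and without SB203580, while single arrays overlap with other groups. Probe A_52_P212065 stays between -0.70 and 0.09 on the arrays that measured it.

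Socs6, which acts on insulin receptor signalling, gave small values above the pool in 5 groups. It read 0.38 and 0.53 after anisomycin (mean 0.46, adjusted p = 0.0116 from limma), 0.26 and 0.43 after 8 h of NaCl (0.34; 0.0282) and 0.40 and 0.29 with SB203580 alone (0.34; 0.0258). With SB203580 it read 0.36 and 0.50 at 45 min of NaCl (0.43; 0.0125) and 0.19 and 0.44 at 8 h (0.32; 0.0446). All 10 arrays lay above the pool, and each of the 5 calls was lost when either array was left out. They came from probe A_52_P177685, with means of 0.54 after anisomycin, 0.52 with SB203580 alone and 0.42 after 8 h of NaCl, while probe A_51_P521056 passed in no group (0.27 after 8 h of NaCl, adjusted p = 0.108 from limma).

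Socs5, the relative of Socs4, ranged from -0.60 to 0.52 over 29 arrays, with group means between -0.44 and 0.27. Its lowest group was p38α-/- cells after 2 h of NaCl, at -0.30 and -0.58, both below the pool but short of the threshold. Socs7, the relative of Socs6, ranged from -0.27 to 0.38 over 19 arrays and had group means of -0.17 to 0.19 in the 6 groups that could be tested. Neither gene passed in any group.

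The share of all genes that passed in each group sets the scale for these counts. In WT MEFs 3 of 6 members tested passed after anisomycin (Socs3, Socs4 and Socs6) against 12% of all genes, 1 of 4 after TNFα against 11%, 0 of 4 at 45 min of NaCl against 9.88%, 1 of 7 at 2 h against 9.92% and 3 of 6 at 8 h against 22.2%. With SB203580 alone 2 of 5 passed against 26.6%. With SB203580 and stress, 1 of 6 passed for anisomycin against 11.7%, 1 of 7 for TNFα against 9.52%, 1 of 5 at 45 min of NaCl against 16.8%, 0 of 7 at 2 h against 17.1% and 2 of 6 at 8 h against 21.2%. In p38α-/- MEFs 1 of 6 passed untreated against 15%, 2 of 7 after anisomycin against 12.4%, 0 of 6 after TNFα against 7.61% and 2 of 8 after NaCl against 18%. At an unadjusted p under 0.05 the 3 groups with no call had 0 members (NaCl at 45 min), 3 members (SB203580 with NaCl at 2 h) and 2 members (p38α-/- with TNFα).

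Each group holds 2 arrays, and several calls needed both. Those of Socs3 after anisomycin and NaCl at 2 h in WT and after NaCl in p38α-/- cells held with either array alone, as did those of Socs4 after 8 h of NaCl with and without SB203580. The calls of Cish in p38α-/- cells after NaCl, of Socs2 in untreated p38α-/- cells and after TNFα in WT, of Socs3 after SB203580 with anisomycin and of Socs4 in p38α-/- cells after anisomycin were lost with either array left out, at adjusted p-values from limma of up to 0.165, 0.223, 0.383, 0.264 and 0.304. Those of Socs2 with SB203580 alone, with SB203580 and TNFα and in p38α-/- cells after anisomycin held in 1 of 2 cases. They were lost with replicate 1 left out, at 0.82, 0.96 and -0.70. The last of these values also held probe A_51_P107362, which was marked as an outlier on replicate 1. Among differences between groups, the rise of Socs3 from untreated p38α-/- cells to 2 h of NaCl was 0.83 without replicate 2 of the NaCl group (adjusted p = 0.107 from limma) and 1.00 without replicate 1 of the untreated group (0.0527). The rise of Socs4 from 2 h to 8 h with SB203580 was 0.57 without replicate 2 at 8 h (0.146) and 0.59 without replicate 2 at 2 h (0.162). The falls and rises from 2 h to 8 h in WT held for Socs3 and Socs4 whichever array was left out.

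For single probes the shares of all probes that passed were 15.2% after anisomycin, 14.8% after TNFα and 24% after 8 h of NaCl in WT. They were 32.2% with SB203580 alone, 13.9% with SB203580 and TNFα, 21% with SB203580 and NaCl at 2 h and 24% with it at 8 h, and 18.3% and 15.2% in p38α-/- cells untreated and after anisomycin. For the single-probe differences given above they were 1.34% for the genotypes after anisomycin, 9.44% for 8 h against 2 h of NaCl in WT and 8.4% with SB203580.

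No member passed for the effect of SB203580 on a stress. limma called 0 of 5 members for anisomycin, where 0.0204% of all genes passed, 0 of 4 for TNFα and 0 of 4 for NaCl at 45 min, where 0% passed, 0 of 7 at 2 h of NaCl, where 0% passed, and 0 of 6 at 8 h, where 0.206% passed. At an unadjusted p under 0.05 there were 1, 0, 0, 1 and 1 members. Those at anisomycin and at 2 h of NaCl were Socs3.

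The genotypes differed past the threshold in no member either. limma called 0 of 6 for anisomycin against 1.27% of all genes, 0 of 4 for TNFα against 0.414% and 0 of 7 for NaCl at 2 h against 0.697%. At an unadjusted p under 0.05 there were 3, 1 and 3 members. Socs2 and Cish were among those for anisomycin and for NaCl at 2 h, and Socs2 was the one for TNFα. With the replicate block 2 members passed, Socs2 and Socs3, both for anisomycin.

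**Figure D5:**
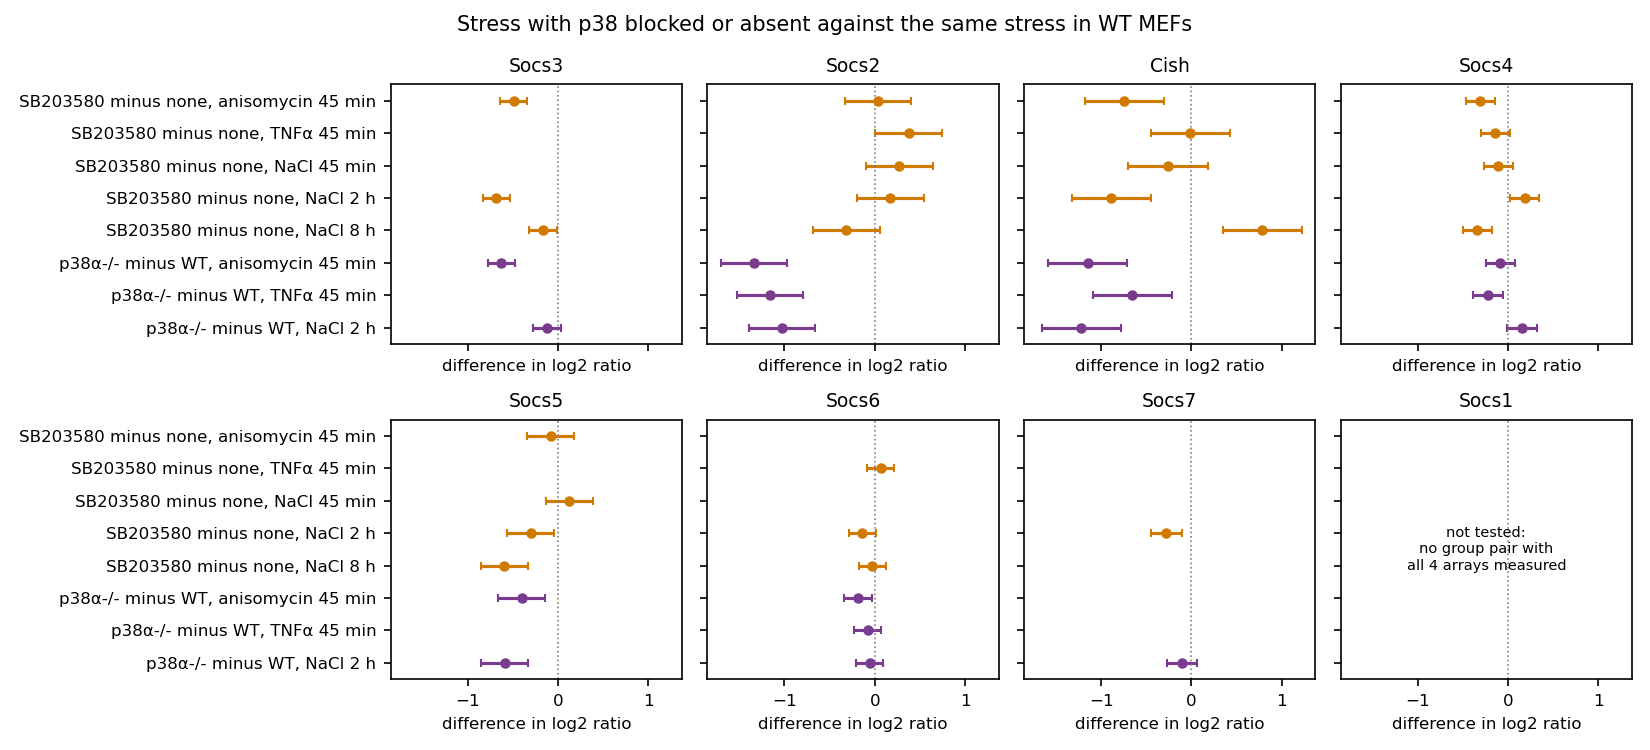
Differences in log2 ratio between arms for each gene, with bars of 1 SE from the fit: SB203580 minus no SB203580 under 5 stresses, and p38α-/- minus WT under 3 stresses; Socs1 could not be tested. Socs3 lies below 0 with SB203580 after anisomycin and after 2 h of NaCl, and Socs2 and Cish lie below 0 in p38α-/- MEFs under all 3 stresses.

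Within an arm, 1 member passed against its unstressed group, Socs3 in p38α-/- cells after 2 h of NaCl, out of 6 tested and against 1.08% of all genes. Anisomycin and TNFα in p38α-/- cells gave 0 of 6 each in limma against 0.0847% and 0.078%, with 1 member each at an unadjusted p under 0.05. Relative to SB203580 alone, limma called 0 of 4 members after anisomycin against 0.014%, 0 of 5 after TNFα against 0.0983%, 0 of 5 at 45 min of NaCl against 0.0435%, 0 of 5 at 2 h against 2.87% and 0 of 5 at 8 h against 7.78%, with 1, 0, 0, 2 and 2 members at an unadjusted p under 0.05. With the replicate block the number within an arm rose from 1 to 2, by Socs2 in SB203580 with 8 h of NaCl.

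The responses to stress were also compared between arms, with untreated cells as the base in p38α-/- and SB203580 alone as the base in the SB203580 arm. For WT without SB203580 the base was the pool at 0, whose spread is not counted. Between p38α-/- and WT limma called 0 of 6 members for anisomycin against 0.542% of all genes, 0 of 4 for TNFα against 0.45% and 0 of 6 for NaCl against 0%, with 1, 1 and 0 members at an unadjusted p under 0.05. Between WT with and without SB203580 it called 0 of 4 for anisomycin against 0.583%, 0 of 4 for TNFα against 0.651%, 0 of 4 at 45 min of NaCl against 0.0936%, 0 of 5 at 2 h against 1.65% and 0 of 5 at 8 h against 0.295%, with 2, 0, 0, 2 and 2 members at an unadjusted p under 0.05. Probe A_51_P471513 of Socs4 alone passed for anisomycin, TNFα and NaCl at 2 h, where 1.23%, 1.38% and 3.85% of all probes did, and a dye effect particular to this probe was not tested.

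Along the NaCl time course, 2 of 6 members passed between 2 h and 8 h in WT, where 7.81% of all genes did: Socs3 fell and Socs4 rose. With SB203580, Socs4 passed as 1 of 6 against 7.32%, and Socs3 fell by -0.41 (SE 0.15) without passing (adjusted p = 0.137 from limma). Between 45 min and 2 h limma called 0 of 4 members in WT against 0.054% and 0 of 5 with SB203580 against 0.343%, with 0 and 1 members at an unadjusted p under 0.05. Among the stresses at 45 min in WT it called 0 of 4 members for anisomycin against NaCl, where 0.289% of all genes passed, 0 of 3 for TNFα against NaCl, where 0.235% did, and 0 of 4 for anisomycin against TNFα, where 0.183% did. At an unadjusted p under 0.05 there were 1, 0 and 0 members, the 1 being Socs4. Socs3 could not be tested in these 3 comparisons. With marked spots kept, its difference between anisomycin and TNFα was 1.16 (adjusted p = 0.000301 from limma).

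The genes around the suppressors in the pathway were read from lists of ligands, receptors, kinases, other inhibitors, ligase subunits and targets. Over the 15 groups, the median log2 ratio of every list lay between -0.29 and 0.30, beside medians of 0 to 0.02 for all genes. Against the 14.7% of all tests that passed, the shares were 21.1% for cytokine ligands (32 higher and 21 lower of 251 tests), 12.3% for JAK-coupled receptors (14 higher and 13 lower of 219), 20.8% for JAK kinases and STAT factors (9 higher and 13 lower of 106) and 19.3% for STAT-responsive genes (39 higher and 11 lower of 259). For the partners of the SOCS box in the ubiquitin ligase the share was 17.9% (13 higher and 7 lower of 112), for other proteins with a SOCS box 20.5% (24 higher and 34 lower of 283), and for other inhibitors of JAK-STAT signalling 5.9% (2 higher and 4 lower of 102).

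The values of this paragraph and the next are log2 ratios over the pool. Those with SB203580 or in p38α-/- cells therefore also hold any difference of that arm without stress. Among ligands and receptors, Csf1, which encodes the macrophage colony-stimulating factor, stood after TNFα at 3.02 in WT (adjusted p = 0.000281 from limma). After TNFα it stood at 2.42 with SB203580 (0.00261) and at 2.61 in p38α-/- cells (0.00114). Tslp, an epithelial and stromal cytokine, stood at 1.45 after TNFα (8.18e-06). After 2 h of NaCl Tslp stood at 1.21 in WT (4.57e-05) and at 1.74 in p38α-/- cells (6.04e-07). The receptor chains Il10rb and Ifnar2, used by IL-10 family cytokines and type I interferons, stood at 1.86 (0.00292) and 1.11 (5.49e-05) after TNFα. Il11ra1, a receptor that signals through gp130, was below the pool by 1.50 after 8 h of NaCl (3.15e-05) and by 1.09 with SB203580 (0.000842).

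Among genes that STATs, and other factors too, can induce, Fos stood at 3.96 after 2 h of NaCl in WT (adjusted p = 1.20e-06 from limma). After 2 h of NaCl it stood at 3.39 with SB203580 (6.49e-06) and at 3.91 in p38α-/- cells (8.27e-07). Fos also stood at 2.32 with SB203580 alone (0.000230). Junb rose by 1.29 after 2 h of NaCl (0.0172) and Myc by 1.97 (0.0257). Irf1 stood at 3.08 after TNFα with SB203580 (0.00112) and in p38α-/- cells (0.000822). Hif1a (1.77, 0.000574) and Ccnd1 (1.17, 0.000787) rose after 8 h of NaCl. A relation of these genes to the suppressors was not tested. Of the other inhibitors Ptpn2, a phosphatase of JAKs and STATs, was below the pool by 1.14 after SB203580 with 8 h of NaCl (0.00258). Asb6, another gene with a SOCS box, fell by 1.02 with SB203580 alone (7.44e-05).

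For members measured in at least 12 groups, the genes with the most similar group means were looked up among about 10457 candidates measured in all 15 groups. Socs2 was closest to Epb4.1l1 (Pearson r = 0.941 over 15 group means), 2010100O12Rik (0.924) and 1700016B15Rik (0.915). Socs4 was closest to Zfp191 (0.938), Smndc1 (0.932) and Lig4 (0.926). Socs6 was closest over 13 groups to 4833408D11Rik (0.918), and Cish over 15 groups to 4930539P14Rik (0.875) and Insm1 (0.871). The group means share the pool, their number is small and the candidates are many, so these values only describe the arrays. Socs3 was measured in 11 groups and was not included.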

How the data were processed

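Two-colour Agilent 44K mouse arrays of 30 samples were used. Per the file headers, the authors quantified them with Agilent Feature Extraction 8.1.1.1 (the submitters' processing notes name version 9.1), which subtracts background, normalises the dyes and writes a log10 ratio of Cy5 over Cy3 and processed intensities for each spot. A deposited series matrix of log2 values, whose centring and scale are not stated, was used as an alternative. Its columns had medians of -0.06 to 0.03, correlated at 0.785 to 0.952 with the scanner log2 ratios of the same array, and ran in the same direction.

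The deposited log10 ratios were turned into log2 ratios. Control spots and spots marked as non-uniform or population outliers were left out. Spots of a probe were averaged, then probes of a gene. limma 3.58.1 in R 4.3.3 (lmFit and eBayes) was fitted to all 30 arrays with 15 group means, and 46 comparisons were read from it. P-values were adjusted by Benjamini-Hochberg over all genes that every array of the comparison measured. With 2 arrays per group the number of arrays limits the precision. The scripts were tested on simulated data with known changes. Python 3.11.15, pandas 2.3.3, numpy 2.4.6 and matplotlib 3.10.9 were used for tables and plots. The array carries gene names of its design, and 10 of the 12 probes matched a RefSeq symbol through their transcript, all but A_52_P84037 (Socs2) and A_51_P471513 (Socs4).

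Replicate numbers came from the titles. Arrays of the same number deviated together: the correlation of their deviations from the group means was above 0.1 in 55 of 55 pairs of WT groups (median 0.458) and 6 of 6 pairs of p38α-/- groups (median 0.246), and in 6 of 44 pairs across genotypes. The number marked scanning batches. Batch 1 held WT replicate 1, batch 2 WT replicate 2 and p38α-/- replicate 1, and batch 3 p38α-/- replicate 2, except that of TNFα, which was alone in batch 4. It was added as a block within each genotype in an alternative fit, whose value stands beside a result where it changed the call.

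The alternatives were the series matrix, outlier spots kept, loess after background correction by normexp (offset 50), dim spots left out, the brightest probe of each gene, the arrays of 1 genotype only, and leaving out each array. Fits of single probes, with and without outlier spots, were added after the values were seen. All 8 members were described in every group. Of the other lists, genes are named where they passed an adjusted p of 0.05 with a log2 value of at least 1 in size, at most 3 per list and comparison, and of these the text gives examples. The members and the lists were chosen with earlier results of these data known.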

Additional observations from a re-analysis of the deposited data

Results flagged for a closer look

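For 1 probe of Socs4, A_51_P471513, the calculated response to stress differed with and without SB203580, while its level under the same stress was close in both arms. With SB203580 alone as the base of the SB203580 arm and the pool as that of WT without it, its response with the inhibitor minus that without was -1.12 for anisomycin (adjusted p = 0.0335 from limma), -1.12 for TNFα (0.028) and -1.06 for NaCl at 2 h (0.0205). These share the same arrays of SB203580 alone, on which the probe read 1.18 and 1.04, and rest on them. Under the same stress its means without and with SB203580 were 0.853 and 0.849 after anisomycin and 0.618 and 0.612 after TNFα. At 2 h of NaCl they were 0.11 and 0.16. The WT values hold the pool, and a dye effect particular to the probe would enter the difference and was not tested. Probe A_52_P212065, with outlier spots kept, went the other way for anisomycin, at 0.54 (adjusted p = 0.0418 from limma). The mean of all Socs4 probes did not pass in these comparisons.

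Spots that the scanner software marked as outliers were outside the main measurement. With these spots kept, and with a group listed where at least 1 of its 2 spots was marked, limma called the following against the pool. Socs4 probe A_52_P212065 stood at -0.253 after anisomycin (adjusted p = 0.048), -0.579 with SB203580 alone (0.000117), -0.33 with SB203580 and TNFα (0.0154), -0.383 with SB203580 and NaCl at 45 min (0.00355) and -0.405 with it at 2 h (0.00368). Socs2 probe A_51_P107362 stood at 0.626 after TNFα (0.00243), 0.571 with SB203580 and TNFα (0.00574), -0.4 in untreated p38α-/- cells (0.0326) and -0.468 in p38α-/- cells after 2 h of NaCl (0.0152). At 45 min of NaCl Socs3 stood at 0.402 (0.0117) and Socs6 probe A_52_P177685 at 0.497 (0.0117). Socs1 stood at -0.445 with SB203580 alone (0.00528). No outlier was looked for among arrays of a group, since each group has 2.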

How the results depend on the processing

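Of the 24 calls, 24 kept their direction and side of the threshold with the replicate block, 24 with the series matrix, 24 without dim spots, 23 with outlier spots kept, 22 with normexp and 21 with the arrays of 1 genotype. With the brightest probe 12 could be tested, of which 8 were kept, 3 lost and 1 reversed. Leaving out 1 array kept a call 27 times and took it below the threshold 29 times, with no change of sign. The group then held 1 array, whose spread was taken to be that of the other groups. With the replicate block 9 further values passed. The counts of members moved as follows. For group means against the pool, 20 of 90 tests became 31 of 120 with the series matrix, where 26.4% of all tests passed, 7 of 62 with the brightest probe (19.6%), 35 of 120 with each probe by itself and outlier spots kept (25.7%), a gene counted once where at least 1 probe passed, and 25 of 89 with the replicate block (21.9%). Leaving out 1 array gave 18 to 21. For SB203580 the count was 0 throughout. Between genotypes, 0 became 1 with normexp, 3 with the series matrix, 2 with outlier spots kept, 2 with the replicate block, 1 with each probe by itself and 2 with each probe and outlier spots kept (0 to 1 leaving out 1 array). Within an arm, 1 became 2 with the series matrix, 2 with outlier spots kept, 2 with the replicate block, 0 with the arrays of 1 genotype, 3 with each probe by itself and 3 with outlier spots kept as well (0 to 2). For differences of responses, 0 became 3 with the series matrix, 3 with each probe by itself and 6 with outlier spots kept as well (0 to 2). For the time course, 3 became 1 with the brightest probe (2 to 3). Between stresses, 0 became 1 with the series matrix, 1 with outlier spots kept and 1 with each probe and outlier spots kept (0 to 1).

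The reversed values came from single probes. Socs4 in WT SB203580 + NaCl 8 h was -0.14 with the brightest probe, which is A_52_P212065, and -0.14 for that probe by itself, with or without outlier spots. With outlier spots kept, this Socs4 probe gave -0.25 in WT anisomycin 45 min, -0.031 in WT NaCl 8 h, -0.58 in WT SB203580, -0.29 in WT SB203580 + anisomycin 45 min, -0.33 in WT SB203580 + TNFa 45 min, -0.38 in WT SB203580 + NaCl 45 min, -0.41 in WT SB203580 + NaCl 2 h and 0.54 for the response to anisomycin with SB203580 minus that without. Socs2 probe A_51_P107362 gave -0.022 and Socs6 probe A_51_P521056 -0.039 in WT SB203580. The cause was not tested. All 12 probes were well above background on all 30 arrays, but probes of 1 gene differed in signal. Cy3 medians were 257 for Socs2 probe A_52_P84037 and 3678 for A_51_P107362. They were 265, 738 and 1328 for Socs4 probes A_51_P165424, A_51_P471513 and A_52_P212065. For Socs6 they were 1141 for A_52_P177685 and 3379 for A_51_P521056. Most calls of these genes came from the dimmer probes, and the part of signal strength in this was not tested.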
